A study of Homo sapiens with 9 samples.

Results

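The genes described here are 10 transcription factor genes grouped under the label of immediate early genes. The 10 are FOS, FOSB, FOSL1 and FOSL2 (the FOS family), JUN, JUNB and JUND (the JUN family), ATF3, EGR1 and MYC. They were measured in MDA-MB-231 cells, an established human triple-negative breast cancer line with mesenchymal features, after lentiviral delivery of a short hairpin RNA. One group carried the scrambled hairpin shScr and the other groups carried shCTDP1-#1 or shCTDP1-#2, hairpins against CTDP1, which encodes a phosphatase that acts on the tail of RNA polymerase II. There were 3 libraries per group and 9 in all, and all 3 groups shared viral infection, puromycin selection and growth in serum-containing medium. Whether a group's libraries are separate cultures is not in the labels, so each p-value speaks only of library-to-library spread, possibly technical. All values are TPM, transcript abundance per length scaled to the same total in each library.

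The deposited tables hold hg19 intervals without gene names. Each gene was taken as the interval with the highest overlap, as a share of the union, with its known hg19 span, and 10 of 10 genes were found among 57773 intervals. The overlap ran from 0.898 to 0.993 of the union, and the next best interval reached at most 0.098. In GENCODE v29, which is on another build, all 10 genes lie on the same chromosome as here and 6 have the same length to the base. The largest difference in length was 219 bases.

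Immediate early genes are transcribed within minutes of a growth factor or stress signal, without new protein synthesis. Whether each of the genes grouped here behaves so was not tested. FOS and JUN family proteins pair through leucine zippers to form AP-1, which binds TGACTCA-like sites. FOS proteins need a JUN partner, whereas JUN proteins and ATF3 can also pair among themselves. EGR1 is a zinc finger factor induced through serum response factor, and MYC pairs with MAX to drive growth and ribosome genes. In triple-negative breast cancer cells FOSL1 is known as the prevailing FOS family member.

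RefSeq promoter sequences (GRCh38.p14) were matched by symbol for 8 of the 10 genes. FOSL1 and MYC were not among them. The 250 bases before the start are shown for the 4 genes that were higher with both CTDP1 hairpins (ATF3, with each start listed for it, FOSB, FOS and JUNB). EGR1 and JUND, which were lower with both, are shown beside them because they hold sites known from other immediate early genes. Capitals mark a TATAAA box, the CRE palindrome TGACGTCA, or a CArG box (the serum response factor site).
ATF3 first start, chr1:212565157-212565406, plus strand: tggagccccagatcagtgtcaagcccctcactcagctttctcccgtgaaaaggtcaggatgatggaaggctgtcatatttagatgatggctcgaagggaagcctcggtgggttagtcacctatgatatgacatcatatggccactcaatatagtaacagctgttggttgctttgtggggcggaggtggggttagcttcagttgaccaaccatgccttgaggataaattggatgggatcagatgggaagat
ATF3 second start, chr1:212614768-212615017, plus strand: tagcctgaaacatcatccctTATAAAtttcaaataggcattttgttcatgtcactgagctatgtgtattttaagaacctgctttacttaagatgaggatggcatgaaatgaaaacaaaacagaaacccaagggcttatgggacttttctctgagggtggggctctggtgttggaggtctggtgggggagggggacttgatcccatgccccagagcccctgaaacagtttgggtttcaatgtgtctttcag
FOSB, chr19:45467746-45467995, plus strand: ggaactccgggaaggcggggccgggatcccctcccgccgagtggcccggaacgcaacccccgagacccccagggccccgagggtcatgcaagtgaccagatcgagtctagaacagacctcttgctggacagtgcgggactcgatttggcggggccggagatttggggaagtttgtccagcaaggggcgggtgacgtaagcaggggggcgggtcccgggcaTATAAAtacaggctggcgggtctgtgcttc
FOS, chr14:75278578-75278827, plus strand: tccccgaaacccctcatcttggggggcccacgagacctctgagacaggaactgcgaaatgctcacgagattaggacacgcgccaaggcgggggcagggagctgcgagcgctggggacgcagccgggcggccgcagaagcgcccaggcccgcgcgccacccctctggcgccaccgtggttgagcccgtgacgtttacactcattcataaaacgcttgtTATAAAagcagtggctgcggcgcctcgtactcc
JUNB, chr19:12791236-12791485, plus strand: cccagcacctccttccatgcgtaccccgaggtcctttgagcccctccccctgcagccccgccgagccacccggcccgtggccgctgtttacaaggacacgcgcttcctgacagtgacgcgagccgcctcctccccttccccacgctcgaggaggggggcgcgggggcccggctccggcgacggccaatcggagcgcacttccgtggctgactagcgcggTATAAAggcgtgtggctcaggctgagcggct
EGR1, chr5:138465229-138465478, plus strand: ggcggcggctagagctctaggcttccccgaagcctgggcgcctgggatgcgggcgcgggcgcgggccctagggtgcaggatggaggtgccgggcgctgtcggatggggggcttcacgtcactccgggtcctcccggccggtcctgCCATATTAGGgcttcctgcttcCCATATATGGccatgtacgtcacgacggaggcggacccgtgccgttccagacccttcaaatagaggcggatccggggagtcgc
JUND, chr19:18281623-18281872, minus strand: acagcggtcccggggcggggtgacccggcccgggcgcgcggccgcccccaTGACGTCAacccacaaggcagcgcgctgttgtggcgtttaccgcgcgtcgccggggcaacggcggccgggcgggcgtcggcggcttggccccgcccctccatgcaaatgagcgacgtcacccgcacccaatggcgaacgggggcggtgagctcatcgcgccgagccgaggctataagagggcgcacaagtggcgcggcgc
TATAAA lay 33 bases before the start of FOS, 30 before FOSB and 31 before JUNB. For ATF3 it lay 230 bases before the second start and was absent from the window of the first. The bases between these ATF3 windows were not searched, so a TATAAA box near another ATF3 start would have been missed. Whether each listed start is used in these cells was not tested. No window of FOSL2, JUN, JUND or EGR1 held TATAAA, and FOSL1 and MYC had no window to search. On either strand, 10.8% of 34943 RefSeq promoters of this length held it. EGR1 held CArG boxes 105 and 83 bases before its start, against 1.16% of promoters with any. JUND held TGACGTCA 200 bases before its start, a motif in 1.63% of promoters. The AP-1 motif TGANTCA (6.59% of promoters) and the MYC motif CACGTG (6.32%) were in 0 of the 8 genes' windows, and the motifs do not overlap one another in these windows. Only exact matches were counted, so near matches such as TGACATCA, in the windows of JUN and of the first ATF3 start, were not. Sites more than 250 bases before a start were not searched. These matches describe letters only.

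CTDP1 itself (18:77439801-77514510) had TPM values of 13.1, 12.4 and 12.01 with shScr, 2.46, 2.62 and 2.46 with shCTDP1-#1, and 3.77, 3.42 and 4.10 with shCTDP1-#2. All 6 knockdown libraries lay below all 3 controls. Its log2 change was -1.94 (SE 0.0973, limma adjusted p = 6.3e-08) with shCTDP1-#1 and -1.50 (adjusted p = 4e-07) with shCTDP1-#2. Of the cell line's markers, VIM (group means from 1480 to 3576 TPM) and CD44 (738 to 979) were high, EPCAM stayed at or below 12.9 TPM, and ESR1 and PGR were at or below 0.27 TPM in every library. ERBB2 was at 13.2 to 28.9 TPM. These levels were not constant between groups. VIM fell to 0.414 of the control mean with shCTDP1-#1 and to 0.579 with shCTDP1-#2. In the same order, CD44 was at 0.834 and 1.11 of the control mean, EPCAM at 1.43 and 0.92, and ERBB2 at 0.987 and 0.533. Mitochondrial transcripts took 4.49% of TPM in shScr replicate 1 and between 1.12% and 2.29% in the other 8 libraries. Without that library, 10 of the 10 genes still passed with shCTDP1-#1 and 9 with shCTDP1-#2, where EGR1 did not. A large share of the transcriptome differed from the controls: 63.1% of 15011 tested intervals passed an adjusted p of 0.05 with shCTDP1-#1 and 64% with shCTDP1-#2. Both comparisons use the same 3 shScr libraries.

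Against that background, all 10 genes passed the test with each hairpin, 4 higher and 6 lower with both. ATF3 and FOSB rose between 8.04-fold and 10.96-fold, FOS and JUNB by 1.56-fold to 2.6-fold, and EGR1, FOSL2, JUN, JUND, FOSL1 and MYC fell. Of all tested intervals, 26.4% were higher with both hairpins and 16.5% lower with both. The libraries of the groups compared did not overlap for any of the 10 genes, which was also the case for 67.8% of tested intervals with shCTDP1-#1 and 67.9% with shCTDP1-#2. The genes' median absolute log2 change was 0.74 with shCTDP1-#1 and 0.39 with shCTDP1-#2, beside 0.39 over all tested intervals in each comparison. In bulk libraries, a lower level per cell and fewer cells that express a gene cannot be told apart. All 10 genes had at least 1 TPM in all 9 libraries and so passed the filter on low values.

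**Figure D1:**
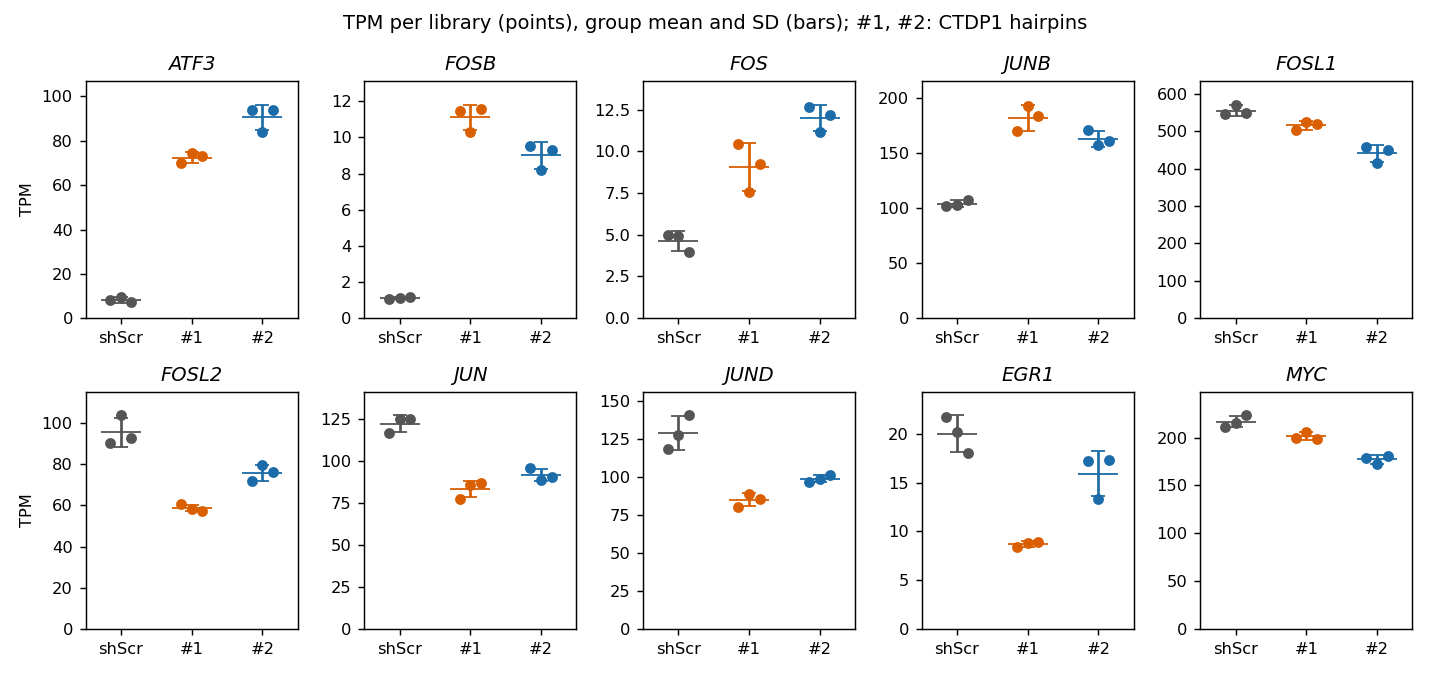
TPM (linear axes from 0, a separate scale per gene) of the 10 genes in each library (points), with group means (horizontal lines) and SDs (vertical bars), n = 3 per group; shScr, #1 and #2 are the scrambled hairpin and the CTDP1 hairpins. ATF3, FOSB, FOS and JUNB sit higher in all 6 knockdown libraries, and the other 6 genes sit lower.

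The control cells held the 10 genes at very different levels. In the shScr libraries FOSL1 had the highest mean, 556 ± 13 TPM (SD, n = 3), above 98.4% of tested intervals, and MYC followed at 217 ± 6 TPM. JUND (129 ± 11 TPM) and JUN (123 ± 4.8) overlapped, as did JUNB (104 ± 3.1) and FOSL2 (95.5 ± 7.1). EGR1 (20.0 ± 1.9), ATF3 (8.27 ± 1.2), FOS (4.62 ± 0.57) and FOSB (1.12 ± 0.046) came last, in that order and with no overlap between neighbours. FOSB lay above only 10.6% of tested intervals. FOS, the founding member of its family, took 0.704% of the family's summed TPM and FOSL1 84.6%.

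ATF3, a stress-induced bZIP factor that can pair with JUN proteins or with itself, lies at 1:212738676-212794119. The shScr libraries held 8.10, 9.59 and 7.11 TPM, against 69.8, 74.4 and 73.0 with shCTDP1-#1 and 93.9, 84.0 and 93.9 with shCTDP1-#2. The 3 groups did not overlap, and shCTDP1-#2 was the highest. The mean rose 8.76-fold with shCTDP1-#1 (log2 change 2.99, SE 0.0897, limma adjusted p = 2.4e-09) and 10.96-fold with shCTDP1-#2 (3.31, adjusted p = 1.8e-09). Its rise was rank 23 of 15011 with shCTDP1-#1 and rank 14 with shCTDP1-#2. The hairpins differed by 0.32 (adjusted p = 0.013). A 246-base interval inside ATF3 was at 0 TPM in every library.

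FOSB, a FOS family member with a strong activation domain, lies at 19:45971253-45978437. Its TPM values were 1.08, 1.11 and 1.17 with shScr, 11.45, 10.3 and 11.6 with shCTDP1-#1 and 9.55, 8.18 and 9.28 with shCTDP1-#2. Every knockdown library was several times the highest control, and shCTDP1-#1 was above shCTDP1-#2 without overlap. The mean rose 9.93-fold with shCTDP1-#1 (log2 change 2.51, SE 0.0988, limma adjusted p = 1.3e-08) and 8.04-fold with shCTDP1-#2 (2.24, adjusted p = 3.2e-08). Because 1 TPM is added before taking logs, the log2 change understates that of a gene near 1 TPM. With 0.1 TPM added instead, FOSB changed by 3.20 and ATF3 by 3.13 with shCTDP1-#1, the opposite order. The whole of FOSB lies within a 71496-base interval (19:45910591-45982086), and the library kit does not record strand. That interval rose less as a ratio, 1.27-fold with shCTDP1-#1 and 1.49-fold with shCTDP1-#2, but stood far above FOSB in TPM. It went from 70.3 TPM in the controls to 89.6 and 105 TPM, a larger rise in TPM than that of FOSB. Its part in the FOSB values was not tested.

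FOS, the prototype partner of JUN, lies at 14:75745477-75748933. The shScr libraries held 4.97, 4.94 and 3.96 TPM, against 10.4, 7.57 and 9.25 with shCTDP1-#1 and 12.7, 11.15 and 12.2 with shCTDP1-#2. No group overlapped another, and the spread was widest with shCTDP1-#1 (coefficient of variation 15.8%). The mean rose 1.96-fold (log2 change 0.84, SE 0.123, limma adjusted p = 1.6e-04) and 2.60-fold (1.21, adjusted p = 1.1e-05) with shCTDP1-#1 and shCTDP1-#2. In TPM, FOS exceeded FOSB 4.15-fold in the controls, was at 0.814 of FOSB with shCTDP1-#1, and was at 1.34 times FOSB with shCTDP1-#2.

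FOSL1 (FRA-1), which lacks a strong activation domain, lies at 11:65659520-65668044. Its TPM values were 546, 571 and 550 with shScr, 503, 525 and 520 with shCTDP1-#1 and 459, 415 and 450 with shCTDP1-#2. The groups did not overlap, though the highest shCTDP1-#1 library was close to the lowest control. The log2 change was -0.11 (SE 0.0409, limma adjusted p = 0.042) with shCTDP1-#1 and -0.33 (adjusted p = 4.4e-05) with shCTDP1-#2. The first of these was smaller in size than that of 84.7% of tested intervals. It lost its call without shCTDP1-#1 replicate 1 (adjusted p = 0.13), 2 (0.059) or 3 (0.071), shCTDP1-#2 replicate 3 (0.052), or shScr replicate 2 (0.13) or 3 (0.067). It also lost it with the replicate number as a block (0.069), without the filter (0.072) and without limma's trend and robust options (0.11).

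FOSL2 (FRA-2), the relative of FOSL1, lies at 2:28615315-28640179. The shScr libraries held 90.3, 103.6 and 92.5 TPM, against 60.45, 58.2 and 57.4 with shCTDP1-#1 and 71.8, 79.4 and 76.2 with shCTDP1-#2. The shCTDP1-#2 libraries lay between the other groups. The mean fell to 0.615 of the control (log2 change -0.69, SE 0.0593, limma adjusted p = 3e-06) with shCTDP1-#1 and to 0.794 (-0.33, adjusted p = 6.9e-04) with shCTDP1-#2. Of the overlapping intervals, one that shares 2225 bases with FOSL2 was at or below 0.66 TPM and a 296-base interval inside it at or below 1.01 TPM.

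As a group, the 4 FOS family genes summed to 657 ± 21 TPM in the controls, 595 ± 8.2 with shCTDP1-#1 and 538 ± 21 with shCTDP1-#2. FOSL1 remained the main component, at 84.6%, 86.7% and 82.0% of the sum. The share of FOS and FOSB was small throughout: FOS went from 0.704% to 1.53% and 2.23%, and FOSB from 0.171% to 1.87% and 1.67%.

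JUN, the prototype AP-1 subunit, lies at 1:59246465-59249785. Its TPM values were 117, 125.4 and 125.2 with shScr, 77.7, 85.7 and 86.9 with shCTDP1-#1 and 95.8, 88.85 and 90.6 with shCTDP1-#2. All knockdown libraries lay below the controls. The log2 change was -0.55 (SE 0.0534, limma adjusted p = 7.4e-06) with shCTDP1-#1 and -0.41 (adjusted p = 6.4e-05) with shCTDP1-#2. The difference between the hairpins was 0.14 (95% interval 0.02 to 0.26, limma adjusted p = 0.055) and did not pass.

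JUND, the JUN relative usually expressed in resting cells, lies at 19:18390563-18392432. The shScr libraries held 118, 128 and 140.6 TPM, against 80.6, 88.85 and 85.7 with shCTDP1-#1 and 96.8, 98.8 and 101.5 with shCTDP1-#2. No group overlapped another. The log2 change was -0.59 (SE 0.062, limma adjusted p = 1.3e-05) with shCTDP1-#1 and -0.37 (adjusted p = 3.8e-04) with shCTDP1-#2.

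JUNB, often an antagonist of JUN at AP-1 sites, lies at 19:12902310-12904124 and moved the other way. Its TPM values were 102, 102.55 and 107.7 with shScr, 169.6, 192.9 and 183.8 with shCTDP1-#1 and 170.7, 157 and 160.7 with shCTDP1-#2. The hairpins overlapped each other, and both lay above every control. The mean rose 1.75-fold (log2 change 0.80, SE 0.0524, limma adjusted p = 4.3e-07) with shCTDP1-#1 and 1.56-fold (0.64, adjusted p = 2.3e-06) with shCTDP1-#2. JUNB lies wholly within a 109738-base interval (19:12873817-12983554), whose reads cannot be told apart by strand. That interval rose by a similar or larger ratio, 1.82-fold with shCTDP1-#1 and 2.11-fold with shCTDP1-#2, but from 18.98 TPM in the controls to 34.5 and 40.1 TPM. Its part in the JUNB values was not tested.

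The JUN family's summed TPM was nearly the same in the 3 groups, at 356 ± 18, 351 ± 20 and 354 ± 9.3 TPM (shScr, shCTDP1-#1, shCTDP1-#2), while its make-up was not. JUNB took 29.3% ± 0.83 of the sum in the controls, the smallest of the 3 shares, 51.9% ± 0.50 with shCTDP1-#1 and 46.0% ± 0.83 with shCTDP1-#2. JUN went from 34.5% to 23.8% and 25.9%, and JUND from 36.2% to 24.3% and 28.0%. The ratio of JUNB to JUN TPM rose from 0.850 to 2.18 and 1.77. That of ATF3 to JUN rose from 0.0675 to 0.869 and 0.987, so that ATF3 and JUN overlapped in the shCTDP1-#2 libraries.

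**Figure D2:**
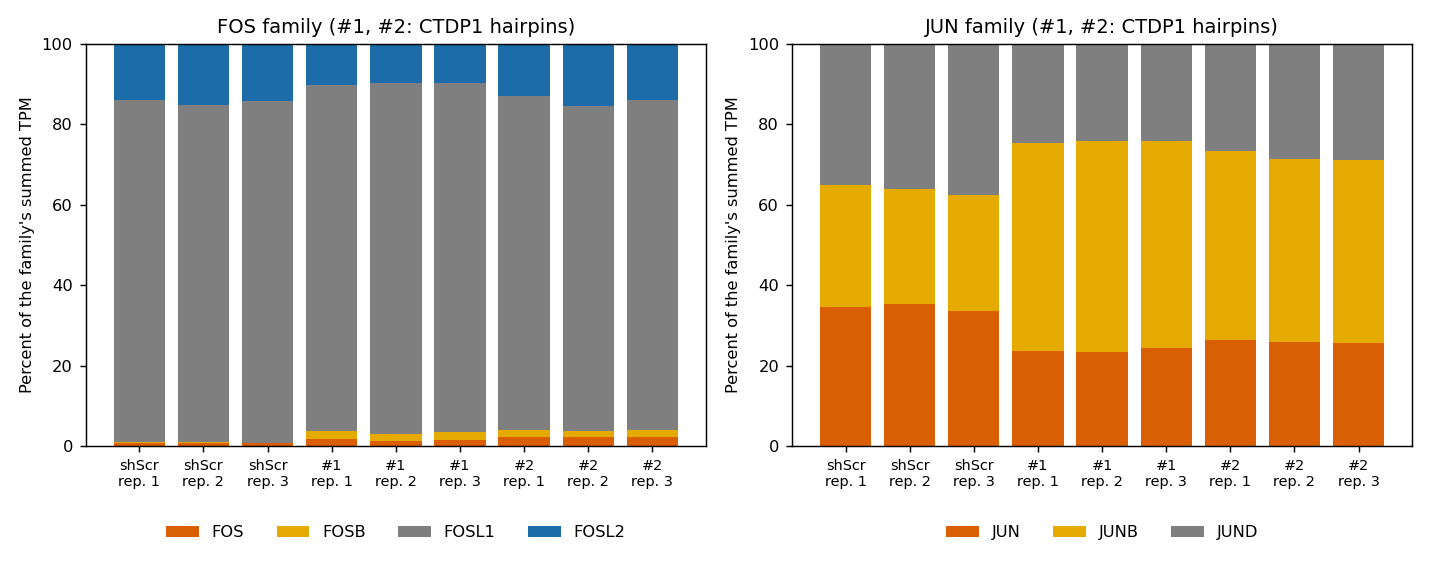
Percent of each family's summed TPM taken by each member, 1 stacked bar per library, for the FOS family (left) and the JUN family (right). JUNB takes 28.8% to 30.3% of the JUN family in the shScr libraries and 45.5% to 52.5% in the knockdown libraries, while FOSL1 takes most of the FOS family in all 9.

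EGR1, the zinc finger immediate early factor, lies at 5:137801179-137805004. The shScr libraries held 21.8, 20.2 and 18.02 TPM, against 8.40, 8.81 and 8.92 with shCTDP1-#1 and 17.2, 13.3 and 17.3 with shCTDP1-#2. The shCTDP1-#1 libraries were far below the rest, whereas the highest shCTDP1-#2 library was just under the lowest control. The mean fell to 0.436 of the control with shCTDP1-#1 (log2 change -1.11, SE 0.107, limma adjusted p = 7.3e-06) and to 0.796 with shCTDP1-#2 (-0.32, adjusted p = 0.025). The call with shCTDP1-#2 was lost without shCTDP1-#2 replicate 2 (-0.20, adjusted p = 0.086), without shScr replicate 1 (-0.26, adjusted p = 0.09) or 2 (-0.31, adjusted p = 0.062), and without the filter (adjusted p = 0.054).

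MYC lies at 8:128747680-128753674. Its TPM values were 211, 215 and 223 with shScr, 200.03, 206 and 198 with shCTDP1-#1 and 179, 172 and 181 with shCTDP1-#2. The groups were ordered without overlap but lay close together. The log2 change was -0.10 (SE 0.0357, limma adjusted p = 0.025) with shCTDP1-#1 and -0.29 (adjusted p = 4.7e-05) with shCTDP1-#2. The change with shCTDP1-#1 was smaller in size than that of 85% of tested intervals. It lost its call without shCTDP1-#1 replicate 1 (adjusted p = 0.068) or 3 (0.079), without shScr replicate 3 (0.092), and without limma's trend and robust options (0.079).

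**Figure D3:**
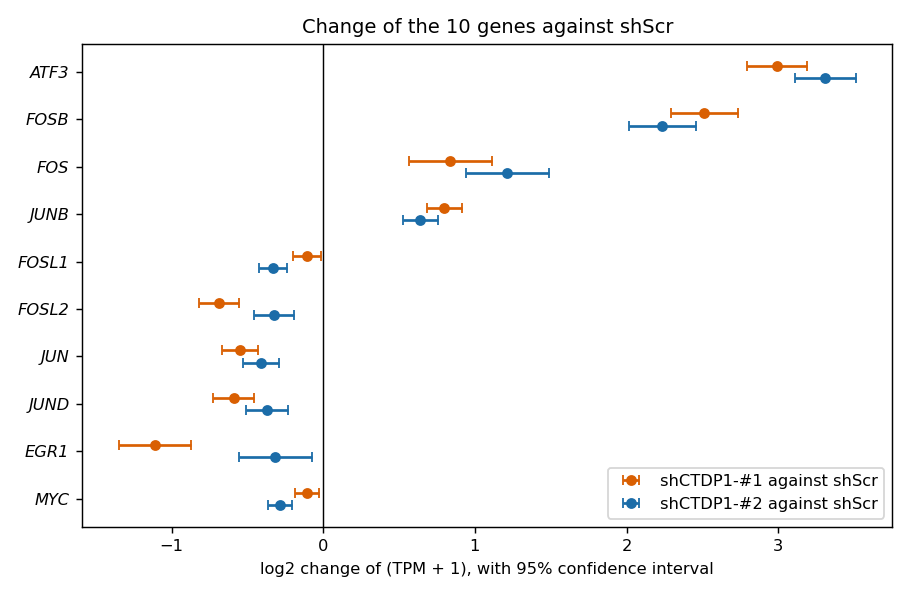
log2 change of (TPM + 1) against shScr with its 95% confidence interval for each gene and hairpin (limma, all 9 libraries). ATF3 (2.99 and 3.31) and FOSB (2.51 and 2.24) stand far to the right, and FOSL1 and MYC with shCTDP1-#1 lie nearest to 0.

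The size of the change differed between the hairpins, though its direction did not. Between shCTDP1-#2 and shCTDP1-#1, 9 of the 10 genes passed the test, 5 higher and 4 lower, beside 50.2% of all tested intervals (30.2% higher and 20% lower, which median-of-ratios scaling turned from 4535 and 3003 intervals into 3754 and 3676). The libraries did not overlap for 9 genes, all but JUNB, as for 58% of tested intervals. The largest difference among the 10 was that of EGR1, 0.79 (limma adjusted p = 1.5e-04), which was 1.83-fold higher with shCTDP1-#2. FOS (0.38, adjusted p = 0.027), FOSL2 (0.36, adjusted p = 5.1e-04) and JUND (0.22, adjusted p = 0.014) were also higher with shCTDP1-#2. FOSB (-0.28, adjusted p = 0.038), FOSL1 (-0.23, adjusted p = 9.7e-04), MYC (-0.18, adjusted p = 0.0016) and JUNB (-0.16, adjusted p = 0.027) were lower. The calls of ATF3, EGR1, FOSL1, FOSL2 and MYC held under all 19 alternatives. FOSB lost its call without shCTDP1-#1 replicate 1 or 3 or shCTDP1-#2 replicate 2 or 3 (adjusted p up to 0.13), without the filter (0.056) and with a pseudocount of 0.1 (0.057). JUNB lost it without shCTDP1-#1 replicate 2 or 3 or shCTDP1-#2 replicate 2 or 3 (up to 0.11), without the filter (0.06) and without limma's trend and robust options (0.065). FOS lost it without shCTDP1-#1 replicate 2 or shCTDP1-#2 replicate 1 or 3 (up to 0.10), without the filter (0.057) and with median-of-ratios scaling (0.055). JUND lost it without shCTDP1-#1 replicate 1 (0.054), with median-of-ratios scaling (0.091) and with upper-quartile scaling (0.071). FOSL1 and MYC were further below the control with shCTDP1-#2, while FOSL2, JUND and EGR1 were nearer to it. CTDP1 was itself higher with shCTDP1-#2 than with shCTDP1-#1, by 0.44 (adjusted p = 0.0036), and the part of this in the genes' differences was not tested.

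Over the 9 libraries each gene was set beside the member most like it. The member most like FOSL1 was MYC (Pearson r of log2(TPM + 1) 0.967), that most like JUN was JUND (0.964), and FOSL2 was most like JUND (0.926). FOSB and JUNB were most like each other (0.982), ATF3 was most like FOSB (0.979, but a Spearman rho of 0.433, the hairpins being in opposite order in these genes), FOS most like ATF3 (0.950) and EGR1 most like FOSL2 (0.903). They are given as a description over 9 libraries that share their division into 3 groups.

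**Figure D4:**
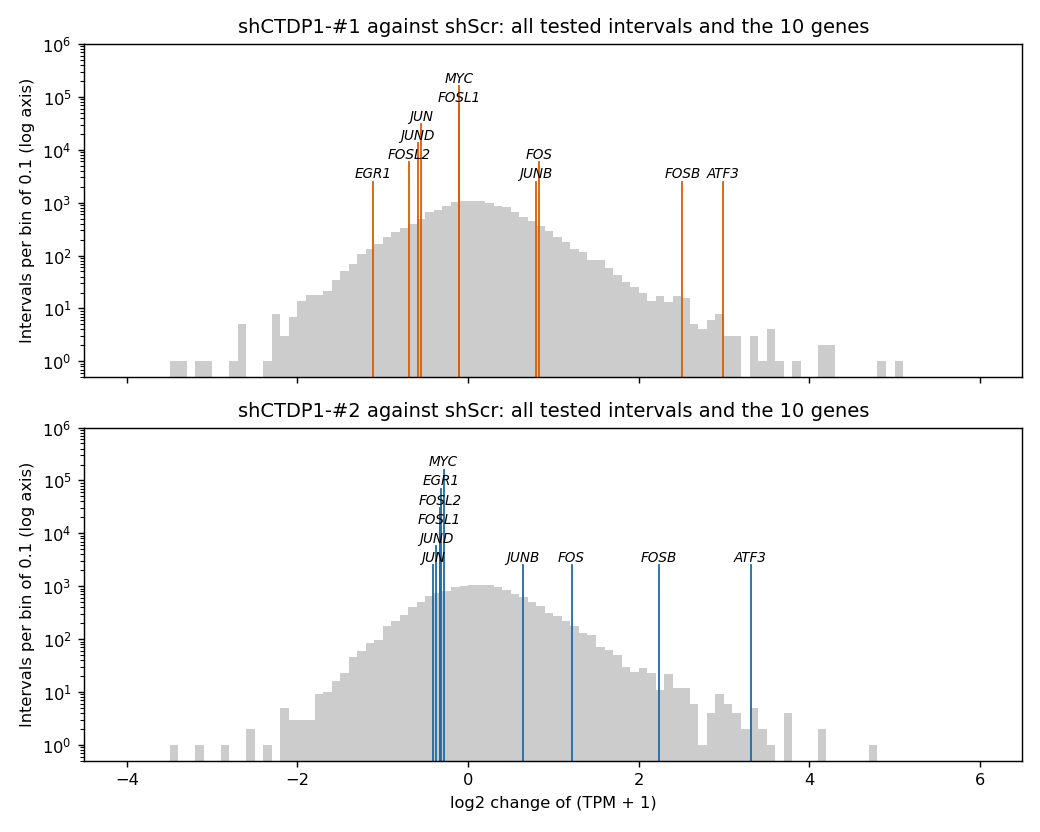
Histogram of log2 changes of (TPM + 1) over all 15011 tested intervals (grey, log count axis, bins of 0.1) for each hairpin against shScr, with a vertical line at each of the 10 genes (line height has no meaning). ATF3 and FOSB lie in the right tail, and FOSL1 and MYC lie in the body. For shCTDP1-#1, only 0.18% and 0.453% of intervals had a larger absolute change, in either direction, than ATF3 and FOSB.

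Genes around these factors were taken from 5 lists, 39 genes in all, of which 37 were matched to an interval and 35 tested. Over all lists 20 genes were higher and 10 lower with shCTDP1-#1, and 18 higher and 13 lower with shCTDP1-#2. All tested intervals gave 35.4% higher and 27.7% lower with shCTDP1-#1, and 39.5% higher and 24.6% lower with shCTDP1-#2. The median log2 change of the 35 genes was 0.18 and 0.16, beside 0.07 and 0.13 over all tested intervals. Genes outside the naming rule (BATF, BATF3, MAFG, MNT, MYCN, EGR2, EGR3, IER3, KLF2, SRF, DUSP1, SPRY2, PLAUR, CCND1, ODC1, NCL and CAD) are named below. Most are named because small counts rest on them, and they were chosen after the values were seen.

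Among the other bZIP genes, 4 of 7 rose with shCTDP1-#1 (MAFF, MAFG, MAFK and BATF) and 3 with shCTDP1-#2 (MAFF, MAFG and MAFK), and JDP2 and BATF3 fell with both. The median log2 change was 0.28 and 0.17. BATF held 0.77, 1.04 and 0.91 TPM with shScr and passed the filter of 1 TPM only through the knockdown libraries. MAFK, a small MAF protein without an activation domain, went from 29.7 TPM to 50.2 and 68.2 TPM (0.74, limma adjusted p = 1.7e-06, and 1.17, adjusted p = 7e-08). MAFF, another small MAF, went from 57.3 to 69.6 and 113 TPM (0.28 and 0.97). JDP2, a repressor that dimerizes with JUN, went from 8.78 to 3.11 and 4.13 TPM (-1.27, adjusted p = 8.8e-05, and -0.94, adjusted p = 7.2e-04).

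In the MYC network, 3 of 5 tested genes rose with shCTDP1-#1 and 4 with shCTDP1-#2 (a median of 0.34 and 0.58). MNT did not pass with either. MXD1 and MXI1, which compete with MYC for MAX, rose by 0.70 and 1.09 (MXD1) and by 0.34 and 0.58 (MXI1). MYCL, a MYC paralog, went from 0.507 TPM to 3.28 and 1.60 TPM (1.50, limma adjusted p = 9.1e-06, and 0.78, adjusted p = 0.001). MAX, the common partner, was at 73.6, 74.3 and 82.1 TPM, with a log2 change of 0.01 (adjusted p = 0.87) and 0.16 (adjusted p = 0.045). The first turned to -0.05 and the second lost its call (0.02, adjusted p = 0.77) with median-of-ratios scaling, 1 of 10 alternatives in which it did. MYCN was at or below 0.04 TPM as a group mean and was not tested.

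Of the other immediate early genes, 7 of 9 tested rose with shCTDP1-#1 and 6 with shCTDP1-#2. EGR2 and IER3 were not matched to an interval. EGR3, with means of 0.32 (shScr), 0.633 (shCTDP1-#1) and 1.14 TPM (shCTDP1-#2), did not pass the filter and was not tested. KLF2 fell with both, and SRF, the factor that binds CArG boxes, changed by 0.18 (limma adjusted p = 0.023) with shCTDP1-#1 and by -0.53 (adjusted p = 2.2e-05) with shCTDP1-#2. The median was 0.25 and 0.30. NR4A1, an orphan nuclear receptor, went from 1.83 to 5.40 and 4.65 TPM (1.17 and 0.99), and KLF10, a TGF-beta inducible repressor, from 45.9 to 101.6 and 96.8 TPM (1.13 and 1.06). IER2 rose by 0.25 and 0.64. KLF6 rose by 0.15 and 0.11. With median-of-ratios scaling the first lost its call (0.08, adjusted p = 0.082) and the second turned to -0.03, and the second lost its call or turned in 7 of the 19 alternatives.

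The phosphatases and Sprouty proteins that limit ERK and JNK signalling did not move as 1 group. With shCTDP1-#1, 3 of 6 rose (DUSP1, DUSP5 and SPRY4) and 2 fell (DUSP4 and DUSP6). With shCTDP1-#2, 2 rose (DUSP1 and SPRY4) and 4 fell (DUSP4, DUSP5, DUSP6 and SPRY2), and the median was 0.28 and -0.25. DUSP6, the cytoplasmic ERK phosphatase, went from 418 to 221 and 352 TPM (-0.92, limma adjusted p = 5.5e-09, and -0.25, adjusted p = 6.8e-05). DUSP4, a nuclear ERK and JNK phosphatase, changed by -0.80 and -0.25. DUSP5, the nuclear ERK phosphatase, was at 70.3, 152 and 51.7 TPM, higher with shCTDP1-#1 (1.10) and lower with shCTDP1-#2 (-0.44), and the hairpins differed by -1.54 (adjusted p = 1.3e-08). SPRY4 rose by 0.64 and 0.53.

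Of 8 genes known as AP-1 or MYC targets, 3 rose (PLAUR, CCND1 and ODC1) and 5 fell (PLAU, HMGA1, NCL, NPM1 and CAD) with each hairpin, with a median of -0.30 and -0.43. PLAUR, the urokinase receptor, rose by 0.51 and 0.77, and PLAU, the urokinase itself, fell by 0.51 and 0.57 on the log2 scale. NPM1, a nucleolar MYC target, went from 5022 to 2177 and 2413 TPM (-1.21 and -1.06). HMGA1, a chromatin protein, went from 1950 to 1573 and 967 TPM (-0.31 and -1.01). NPM1 and HMGA1 have processed pseudogenes that can share their reads, so their values are uncertain.

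**Figure D5:**
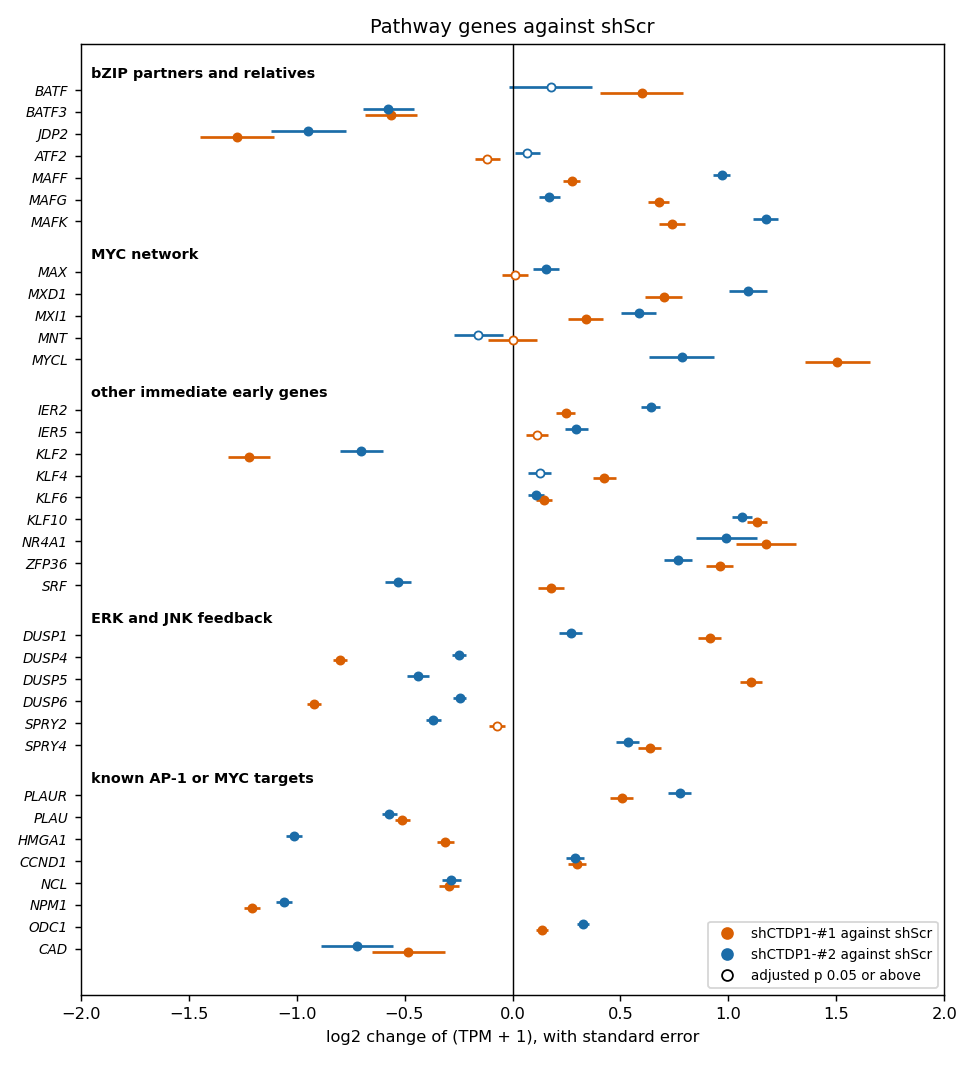
log2 change of (TPM + 1) against shScr for each tested gene of the 5 lists, with 1 point per hairpin, grouped by list. MXD1, MYCL, MAFK, KLF10 and NR4A1 lie to the right with both hairpins, JDP2, KLF2 and NPM1 to the left, and DUSP5 on opposite sides. MYCL and BATF passed the filter only through the knockdown libraries.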

How the data were processed

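RNA-seq libraries of 9 MDA-MB-231 samples were analysed. STAR, RSEM and the build hg19 are named in the submitters' processing notes, with versions not given in the sources used here. In each file the authors deposited 1 value per interval, taken as TPM because each library sums to that unit's fixed total. TPM keeps no depth, so counting intervals and floors are not given. Rows whose interval occurred more than once (2246) were left out (0.355% to 0.391% of TPM). The 15011 intervals that reached 1 TPM in 3 or more libraries were fitted as log2(TPM + 1) in R 4.3.3 by limma 3.58.1 (options trend and robust, 6 residual degrees of freedom, all 9 libraries). Benjamini-Hochberg adjustment ran over all of them, and the threshold was 0.05. The fit was tested on simulated data. Fold changes of a gene between groups, given as ratios, compare mean TPM. Ratios of a gene to another gene, and shares of a family's sum, were taken per library and then averaged. SDs are over 3 libraries.

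The 10 genes and the 5 lists were chosen with earlier results of these data known. Spans of the genes on the lists were written from knowledge of hg19, accepted at an overlap of at least 0.7 of the union, and 34 of 37 matched genes had the same length in GENCODE v29. Named from each list were the 2 genes with the highest mean TPM and the 2 with the largest absolute log2 change among those called with both hairpins. The smaller of a gene's changes was used to rank them, a reading chosen after the values were seen. Alternatives were pseudocounts of 0.1 and 0.5, no filter or 5 TPM, upper-quartile and median-of-ratios scaling, nuclear intervals only, only the groups compared, a replicate block, limma without trend and robust options, and leaving out each library.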

Additional observations from a re-analysis of the deposited data

Results flagged for a closer look

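For 9 of the 10 genes the effect of the hairpins against shScr differed in size by limma's test of shCTDP1-#2 against shCTDP1-#1. EGR1 differed by 0.79 on the log2 scale, FOS by 0.38, FOSL2 by 0.36, ATF3 by 0.32 and JUND by 0.22, all higher with shCTDP1-#2. FOSB differed by -0.28, FOSL1 by -0.23, MYC by -0.18 and JUNB by -0.16, all lower with shCTDP1-#2. Of all tested intervals, 50.2% passed the same test.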

How the results depend on the processing

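Over 19 alternatives the 30 log2 changes of the 10 genes gave 570 values, of which 530 kept their direction and their side of the threshold, 37 lost the call, 3 gained it and 0 changed sign. Between the hairpins, 3 genes in place of 5 were higher with median-of-ratios scaling (FOS and JUND lost), and 2 in place of 4 were lower without the filter (FOSB and JUNB lost). Leaving out 1 library at a time gave 2 to 4 genes lower between the hairpins, with 2 without shCTDP1-#1 replicate 3, shCTDP1-#2 replicate 2 or shCTDP1-#2 replicate 3. JUN gained one with a filter of 5 TPM, with nuclear intervals only and without shCTDP1-#1 replicate 3. Without 1 library, 4 to 6 genes were lower with shCTDP1-#1 and 5 to 6 with shCTDP1-#2. The log2 change of MAX with shCTDP1-#1 turned to -0.049 with median-of-ratios scaling and ranged from -0.0348 (without shCTDP1-#1 replicate 1) to 0.0498 with 1 library left out, also falling below 0 without shScr replicate 3. That of KLF6 with shCTDP1-#2 turned to -0.026 with median-of-ratios scaling, which also ended its call with shCTDP1-#1 (0.0845, adjusted p = 0.082). Median-of-ratios scaling shifted the median of all tested intervals with shCTDP1-#2 by -0.12. It split the calls there into 4748 higher and 4700 lower, in place of 5923 and 3689. The causes were not tested.

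Replicate numbers are shared across groups, but the labels do not say that they mark a common culture. Between groups, deviations of same-numbered libraries correlated at -0.01 to 0.05, and those of other libraries at -0.05 to 0.02. Each of the 9 libraries was closest to those sharing its number, a hint that comes from the values and not from the design. Such weak correlations cannot tell whether the numbers pair the samples. The replicate block gave 9393, 9517 and 7425 calls for shCTDP1-#1, shCTDP1-#2 and the hairpins against each other, and 9212, 9344 and 7239 of these were shared with the fit lacking it. Among the 10 genes it changed only the call of FOSL1 with shCTDP1-#1 (-0.11, adjusted p = 0.069). With 3 libraries per group and no known depth, small changes such as those of FOSL1 and MYC with shCTDP1-#1 are at the edge of what these data resolve.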
